A study of Mus musculus with 46 samples.

Results

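The genes described here encode 9 surface molecules, or makers of surface molecules, by which cells are commonly sorted on the way from a fibroblast to an induced pluripotent stem cell (iPSC): Thy1, Cd44, Ly6a, Eng, Icam1, Alpl, Cd9, Fut9 and Pecam1. They were taken by symbol, and all 9 were found among the 37108 genes of a time-course table and, as 1 to 11 transcripts each, among the 106520 transcripts of an iPSC table. The rule used symbols alone, but the symbols and the gene lists used below were chosen with earlier results of these data known. The shares of all genes set beside their counts are therefore background and no test of the set. The study asked how a fusion of Nanog with a chromatin-remodeller-binding piece of SS18 compares with native Nanog in reprogramming. Mouse embryonic fibroblasts (MEF) of mid-gestation embryos that carry an Oct4-GFP transgene were infected with retroviruses for Oct4 together with either the fusion, labelled NanogN70 and called NanogBiD in the study, or native Nanog. NanogN70+Oct4 and Nanog+Oct4 cells were sampled at the end of infection (D0) and on 7 later days up to D12 (D1, D3, D5 and D7 before or at the medium change, then D8 and D10), with 2 libraries per combination and day except 1 NanogN70+Oct4 library at D8. The references were 2 MEF libraries and 1 mouse embryonic stem cell (mES) library, labelled OG2 after the same Oct4-GFP transgene. A separate table held 12 iPSC samples, 6 of each combination, labelled iPSC1 or iPSC2, with the MEF and mES samples again. The labels do not say what iPSC1 and iPSC2 stand for, and they are called lines here for short. The libraries are bulk RNA of mixed cells, so for each gene fewer cells of a type and less RNA per cell cannot be told apart. Values are FPKM, fragments scaled by gene length and by mapped fragments, and they measure mRNA, not protein at the surface. The tables were tested separately, and levels differ somewhat between them for the same MEF and mES samples.

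Thy1 and CD44 are glycoproteins of the fibroblast membrane that are lost as reprogramming goes on, and the enzyme alkaline phosphatase, the adhesion molecule ICAM1 and the sugar epitope SSEA-1 are gained at successive stages. SSEA-1 is the Lewis x trisaccharide, whose last fucose is added by the enzyme that Fut9 encodes. Cells that pass from high CD44 to low CD44 while holding ICAM1 are the ones from which pluripotent colonies are usually obtained, and PECAM1 comes on late, near the pluripotent state.

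The groups stood where their labels put them on marker genes of fibroblasts and pluripotent cells. The summed level of 8 fibroblast genes (Col1a1, Col1a2, Col3a1, Dcn, Lum, Postn, Twist2 and Prrx1) was 5451 and 6533 FPKM in the 2 MEF libraries and 0.840 in mES, where none of the 8 reached 1 FPKM. A sum of 8 pluripotency genes (Sox2, Esrrb, Zfp42, Dppa5a, Dppa3, Tdgf1, Tfcp2l1 and Utf1) was 0.365 and 1.502 FPKM in MEF and 3593 in mES. Libraries differed in depth: on a scale on which the 20 libraries of D0 to D7 lay between 0.85 and 1.08, the 5 later NanogN70+Oct4 libraries lay between 0.791 and 0.999 and the 6 Nanog+Oct4 libraries of D8 to D12 between 1.82 and 3.14. Depth and combination therefore cannot be told apart from D8 on. Within Nanog+Oct4 depth also rose between D7 and D8, so depth and time cannot be told apart across that step. The medium was changed at about D7, so medium and time cannot be told apart across it in either combination. The iPSC table gives no such scale, and its depth is unknown. To be called, a difference had to reach 2-fold (1 on the log2(FPKM + 1) scale) and a p under 0.05 from limma, adjusted by Benjamini and Hochberg's method over the 16915 genes tested. The scale understates the change of genes near 0. All 9 genes passed the filter on low values, 1 FPKM in at least 2 fitted libraries. In the time course Fut9 passed only through the NanogN70+Oct4 libraries of D10 and D12. Pecam1 reached 1 FPKM with NanogN70+Oct4 from D8 on, and otherwise only in Nanog+Oct4 D12 replicate 2. In the iPSC fit both genes reached it only in iPSC. The calls of Fut9 and Pecam1 are thus not independent of the filter. The labels do not say whether replicates came from separate cultures, so the p-values measure the spread between these libraries, which may be technical.

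More of the 9 genes were called between the combinations at D10 and D12 than on earlier days, as were more of all genes tested. At D0 none of the 9 was called, against 0.733% of all genes tested, and the only member with an unadjusted p under 0.05 was Eng. At D1 none was called (1.22% of all genes), although 4 members (Thy1, Alpl, Eng and Cd9) had an unadjusted p under 0.05. At D3 3 of the 9, Thy1, Alpl and Eng, were called, all lower with NanogN70+Oct4, where 3.64% of all genes were called. The same 3 were called at D5, against 6.43% of all genes, and Thy1 and Eng at D7, against 10.4%. After the medium was changed at about D7, 7 of the 9 were called at D10 (27.6% of all genes) and 7 at D12 (23.3%). At D10 Fut9 and Pecam1 were higher with NanogN70+Oct4 and Thy1, Cd44, Icam1, Ly6a and Eng lower, and at D12 Fut9, Pecam1 and Cd9 were higher and Thy1, Cd44, Icam1 and Ly6a lower. The median log2 difference at D12 was -0.50 over the 9 members and 0.17 over all genes tested.

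**Figure D1:**
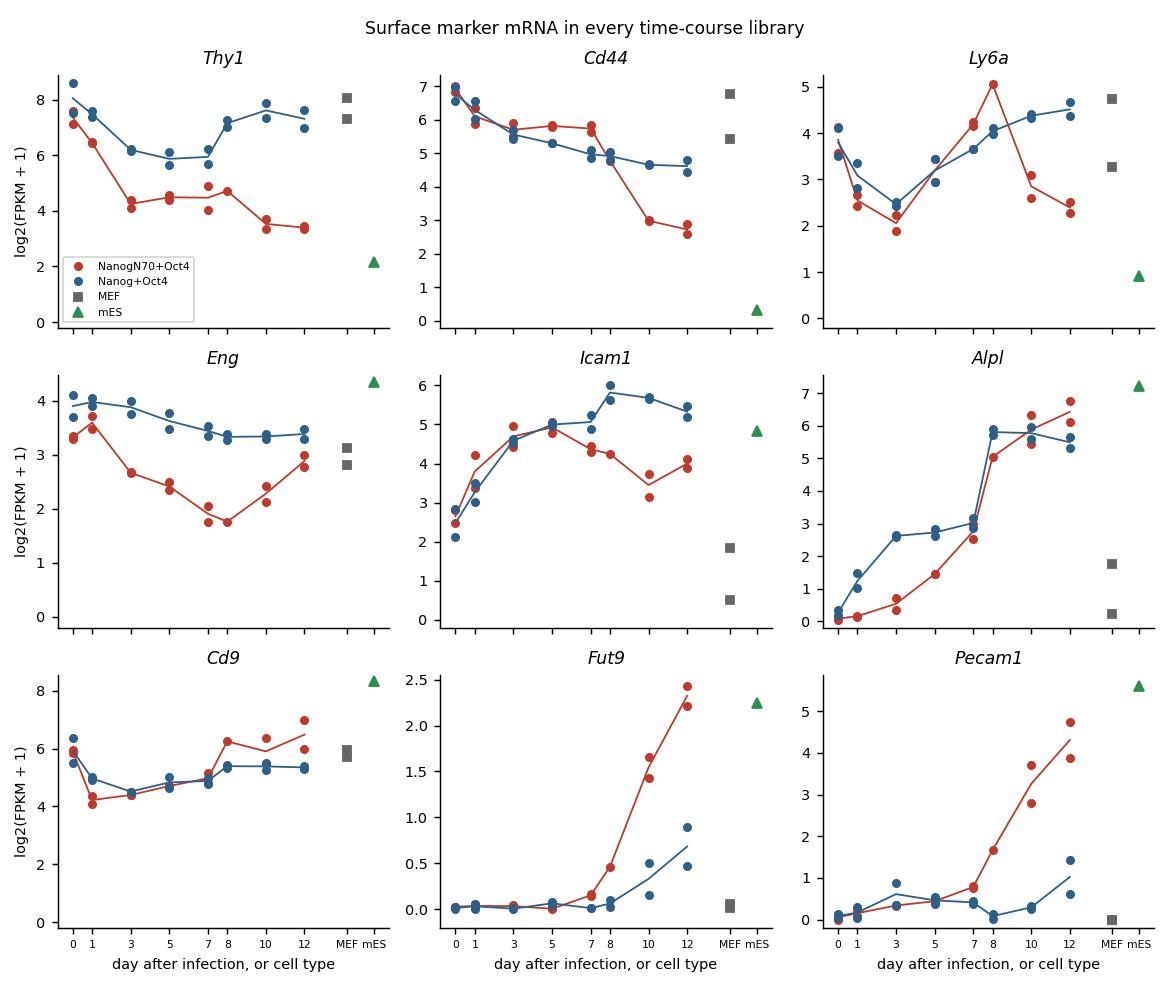
The plots show log2(FPKM + 1) of the 9 genes (vertical axes, each with its own range) by day after infection, with NanogN70+Oct4 libraries as red points, Nanog+Oct4 libraries as blue points, lines through the daily means, MEF as grey squares and mES as a green triangle. Thy1, Cd44 and Ly6a end lower with NanogN70+Oct4, Fut9 and Pecam1 rise mostly there, and Alpl rises in both.

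Thy1 encodes a GPI-anchored immunoglobulin-superfamily glycoprotein and is the classical marker of fibroblasts (chr9:44043384-44048579, plus strand; positions are of GENCODE vM21 on GRCm38, the build named mm10). In MEF it stood at 158 and 264 FPKM and in mES at 3.49. With NanogN70+Oct4 it was at 192 and 138 FPKM on D0, 84.6 and 86.8 on D1, 19.99 and 16.2 on D3, 22.9 and 19.99 on D5 and 28.99 and 15.4 on D7, then 25.2 on D8, 11.999 and 9.25 on D10 and 9.13 and 9.88 on D12. With Nanog+Oct4 it was at 381 and 181 FPKM on D0, 189 and 165 on D1, 69.8 and 74.3 on D3, 48.8 and 67.4 on D5 and 72.8 and 49.97 on D7, then 154 and 129 on D8, 233 and 162 on D10 and 197 and 126 on D12. The paths therefore shared an early fall and then separated. On every day from D1 both Nanog+Oct4 libraries were above each NanogN70+Oct4 library of that day, of which D8 has 1. The 6 Nanog+Oct4 libraries of D8 to D12 had climbed back to between 126 and 233 FPKM. NanogN70+Oct4 had kept 10.99% of its D0 mean at D3 and 5.77% at D12, and Nanog+Oct4 20.7% at D5 and 57.4% at D12. The Nanog+Oct4 shares rest on D0 libraries that stood apart, and without Nanog D0 replicate 1 they were 32.04% and 88.97%. The log2 difference between the combinations was -1.94 ± 0.33 (SE, adjusted p = 0.000517) at D3, -1.38 ± 0.33 (SE, adjusted p = 0.00628) at D5 and -1.47 ± 0.33 (SE, adjusted p = 0.00221) at D7. It widened to -4.08 ± 0.33 (SE, adjusted p = 4.49e-09) at D10 and -3.92 ± 0.33 (SE, adjusted p = 7.44e-09) at D12, where the Nanog+Oct4 mean was 16.97 times the NanogN70+Oct4 mean. From D7 to D10 Thy1 rose with Nanog+Oct4 by 1.67 ± 0.33 (SE, adjusted p = 0.000807) on the log2 scale, and the same interval gave -0.94 ± 0.33 (SE, adjusted p = 0.0301) with NanogN70+Oct4, short of the 2-fold limit. The medium, and with Nanog+Oct4 the depth, also changed in this interval and cannot be told apart from time. The call at D5 was lost without NanogN70 replicate 2, at -1.29 (adjusted p = 0.0612), or without Nanog replicate 2, at -1.15 (adjusted p = 0.0717), and the call at D7 without NanogN70 replicate 2, at -1.03 (adjusted p = 0.0649).

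Beside Thy1, the 8 fibroblast genes were lower with NanogN70+Oct4 at D12. Their sum was 2221 and 2477 FPKM at D0 with NanogN70+Oct4 and 2182 and 2473 with Nanog+Oct4, and by D12 288 and 428 with NanogN70+Oct4 and 2811 and 3130.4 with Nanog+Oct4. From D0 to D12 7 of the 8 fell and none rose with NanogN70+Oct4, while 3 rose and 2 fell with Nanog+Oct4. Between the combinations all 8 were called lower with NanogN70+Oct4 at D12, from Twist2, a mesenchymal transcription factor, at -2.40 ± 0.32 (SE, adjusted p = 3.15e-06) to Lum, a collagen-binding proteoglycan, at -3.46 ± 0.54 (SE, adjusted p = 1.92e-05). Of 12 other surface molecules of fibroblasts, 8 were called lower at D12 and none higher, with a median of -2.07. They ran from Cd248 (endosialin) at -1.5 ± 0.26 (SE, adjusted p = 6.6e-05) to Nt5e, the ecto-nucleotidase CD73, at -3.75 ± 0.25 (SE, adjusted p = 2.53e-10). At D5 2 of the 12 were called, both lower, and likewise 2 at D7. From D0 to D12 8 of the 12 fell and 1 rose with NanogN70+Oct4, while 2 fell and 2 rose with Nanog+Oct4. How much of the Thy1 difference goes with the number of fibroblasts in the dish was not tested.

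Cd44 encodes the receptor for hyaluronan (chr2:102811141-102901665, minus strand). It stood at 41.7 and 108 FPKM in the 2 MEF libraries and at 0.264 in mES. NanogN70+Oct4 gave 112 and 128 FPKM on D0, 57.1 and 79.8 on D1, 44.2 and 58.6 on D3, 55.99 and 54.5 on D5 and 48.6 and 56.2 on D7, then 26.4 on D8, 6.98 and 6.86 on D10 and 4.97 and 6.34 on D12. Nanog+Oct4 gave 92.3 and 126 FPKM on D0, 64.4 and 92.5 on D1, 42.2 and 50.3 on D3, 38.1 and 38.5 on D5 and 27.7 and 33.04 on D7, then 31.9 and 26.7 on D8, 24.02 and 24.4 on D10 and 20.7 and 26.7 on D12. Up to D3 the libraries of the combinations overlapped, at D5 and D7 NanogN70+Oct4 was the higher, and at D10 and D12 it was far the lower. The order thus turned over between D7 and D10. The difference was 0.77 ± 0.29 (SE, adjusted p = 0.0549) at D7, which missed the call, -1.67 ± 0.29 (SE, adjusted p = 5.86e-05) at D10 and -1.89 ± 0.29 (SE, adjusted p = 1.78e-05) at D12. Cd44 fell in both combinations from D0 to D12. The log2 change was -4.19 ± 0.29 (SE, adjusted p = 1.57e-10) with NanogN70+Oct4 and -2.15 ± 0.29 (SE, adjusted p = 6.09e-06) with Nanog+Oct4. NanogN70+Oct4 had 43.6% of its D0 mean left at D7 and 5.76% at D10.

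Genes that make, break down or bind hyaluronan, the ligand of CD44, moved in both directions. Of 9 such genes 7 were tested, and at D12 1 was called higher and 3 lower with NanogN70+Oct4. The extremes were Hmmr, a mitotic spindle protein also known as a hyaluronan-binding receptor, at 2.39 ± 0.21 (SE, adjusted p = 1.05e-08) and Cemip, which degrades hyaluronan, at -4.82 ± 0.28 (SE, adjusted p = 5.07e-11). Of the other days only D5 and D7 were counted for the lists. There Has2, a hyaluronan synthase, was lower at D5 and Hmmr higher at D7.

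Ly6a encodes Sca-1, a GPI-anchored antigen of stem cells and of some fibroblasts (chr15:74994877-74998031, minus strand). It was at 25.5 and 8.68 FPKM in MEF and 0.893 in mES. With NanogN70+Oct4 the values were 10.9 and 16.6 FPKM on D0, 5.39 and 4.35 on D1, 3.71 and 2.68 on D3, 9.89 and 6.65 on D5 and 16.7 and 17.9 on D7, then 32.4 on D8, 7.598 and 5.07 on D10 and 3.88 and 4.67 on D12. With Nanog+Oct4 they were 16.2 and 10.3 FPKM on D0, 6.04 and 9.24 on D1, 4.703 and 4.35 on D3, 6.72 and 9.82 on D5 and 11.7 and 11.6 on D7, then 16.2 and 14.8 on D8, 19.2 and 20.4 on D10 and 19.6 and 24.4 on D12. Both combinations dipped to their lowest at D3 and then climbed. Nanog+Oct4 went on climbing to D12, and NanogN70+Oct4 reached its highest value in the single D8 library and then dropped below its D0 values. The combinations were not called apart until D10, at -1.52 ± 0.34 (SE, adjusted p = 0.000642), and D12, at -2.12 ± 0.34 (SE, adjusted p = 2.39e-05). With NanogN70+Oct4 Ly6a fell from D7 to D10, with a log2 change of -1.34 ± 0.34 (SE, adjusted p = 0.00323), a call that was lost without NanogN70 D10 replicate 2, at -1.09 (adjusted p = 0.0513). With Nanog+Oct4 the value from D0 to D12 was 0.72 ± 0.34 (SE, adjusted p = 0.1), not called.

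Ly6a belongs to a family of related genes, and whether the counting split reads between them was not tested. Of 9 other Ly6 genes looked at, 3 passed the filter. Ly6c1 was called lower with NanogN70+Oct4 at D12, at -1.05 ± 0.32 (SE, adjusted p = 0.00899), and was the only Ly6 gene called at D5, D7 or D12. It ranged from 0.206 to 4.73 FPKM over the time course. Ly6e, by contrast, lay between 69.7 and 246 FPKM and differed at D12 by -0.11 ± 0.19 (SE, adjusted p = 0.657). The third, Ly6h, a neuronal member, reached 7.02 FPKM and rose from D0 to D12 in both combinations, by 2.95 ± 0.24 (SE, adjusted p = 1.88e-09) with NanogN70+Oct4 and 2.25 ± 0.24 (SE, adjusted p = 3.01e-07) with Nanog+Oct4.

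Eng encodes endoglin, a co-receptor of the TGF-beta and BMP receptors, found on mesenchymal and endothelial cells (chr2:32646595-32682669, plus strand). It was at 7.66 and 6.02 FPKM in MEF and, unlike the other fibroblast markers of the set, higher in mES, at 19.4. NanogN70+Oct4 libraries held 9.15 and 8.81 FPKM on D0, 12.1 and 10.1 on D1, 5.31 and 5.37 on D3, 4.06 and 4.6 on D5 and 3.14 and 2.39 on D7, then 2.39 on D8, 4.38 and 3.37 on D10 and 6.95 and 5.84 on D12. Nanog+Oct4 libraries held 16.1 and 11.96 FPKM on D0, 13.998 and 15.4 on D1, 12.5 and 14.96 on D3, 10.1 and 12.7 on D5 and 10.6 and 9.13 on D7, then 8.64 and 9.47 on D8, 8.75 and 9.44 on D10 and 8.74 and 10.1 on D12. NanogN70+Oct4 lay below Nanog+Oct4 on all 8 days without overlap, and traced a trough with its bottom at D7 and D8. The difference was -1.21 ± 0.17 (SE, adjusted p = 5.08e-05) at D3, -1.21 ± 0.17 (SE, adjusted p = 3.09e-05) at D5, -1.53 ± 0.17 (SE, adjusted p = 9.19e-07) at D7 and -1.06 ± 0.17 (SE, adjusted p = 2.23e-05) at D10. By D12 it had narrowed to -0.50 ± 0.17 (SE, adjusted p = 0.0184), under the 2-fold limit. Without NanogN70 D10 replicate 2 the D10 value was -0.91 (adjusted p = 0.00113), again under that limit. The last bases of Eng overlap Fpgs on the other strand, and the counting is not stated to use strand, so reads of the overlap cannot be told apart.

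Among 8 receptors and SMAD proteins that work with endoglin, none was called higher with NanogN70+Oct4 at D5, D7 or D12, and 1, 1 and 3 were called lower. The gene called at D5 and at D7 was Tgfbr2. The 3 of D12 were Smad1, at -1.02 ± 0.18 (SE, adjusted p = 9.33e-05), Tgfbr3 (betaglycan) and Tgfbr2, the type II TGF-beta receptor, at -3.50 ± 0.21 (SE, adjusted p = 7.84e-11).

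**Figure D2:**
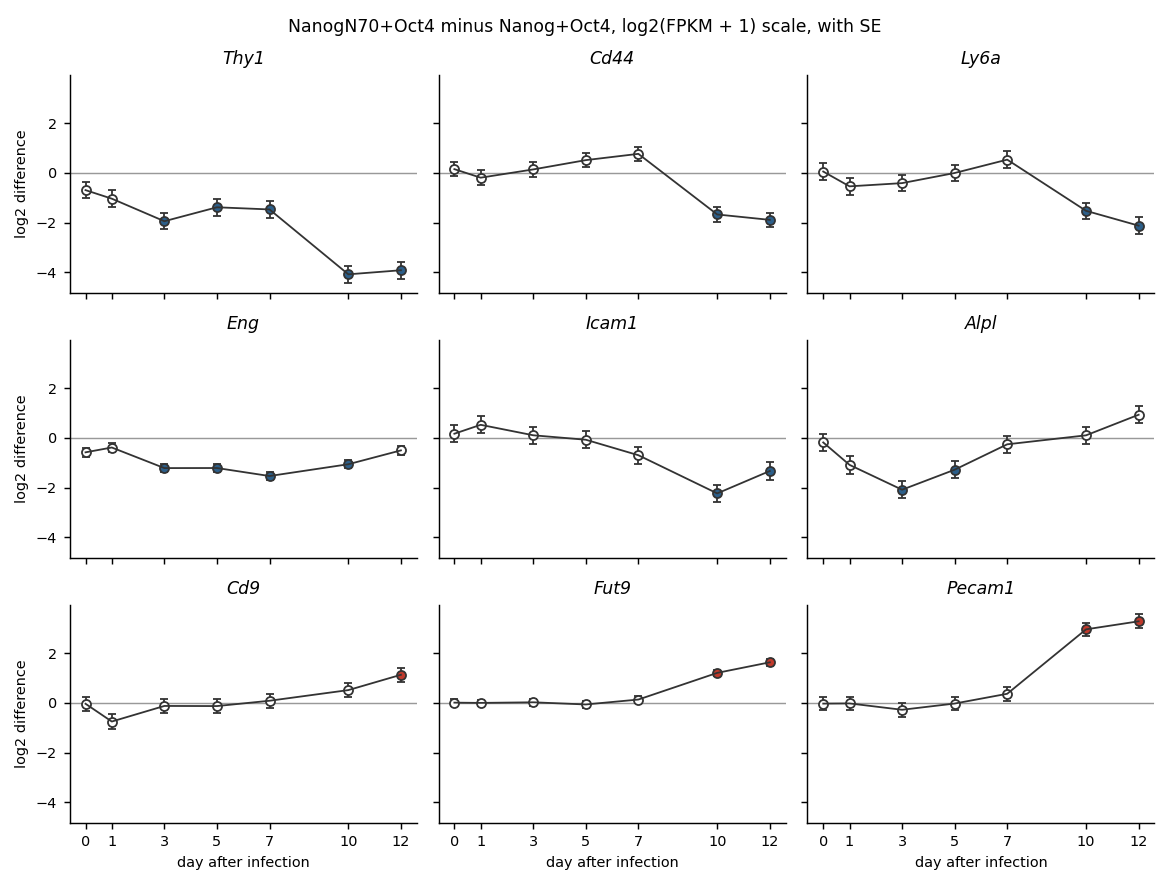
The plots show, for each gene, the log2 difference NanogN70+Oct4 minus Nanog+Oct4 (vertical axes, log2(FPKM + 1) scale) at the 7 days with 2 libraries per combination, with bars of 1 SE from limma. Filled blue points are called lower and filled red points called higher with NanogN70+Oct4, and open points are not called. Thy1, Alpl and Eng part first, and Cd44, Ly6a, Icam1, Fut9 and Pecam1 part between D7 and D10.

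Icam1 encodes intercellular adhesion molecule 1, the ligand of leukocyte integrins, which in reprogramming marks an intermediate stage and stays on in pluripotent cells (chr9:21015985-21028817, plus strand). It was at 2.61 and 0.428 FPKM in MEF and 27.4 in mES. With NanogN70+Oct4 the libraries read 6.03 and 4.59 FPKM on D0, 17.5 and 9.44 on D1, 29.996 and 20.6 on D3, 32.4 and 26.6 on D5 and 18.5 and 20.9 on D7, then 17.99 on D8, 12.4 and 7.92 on D10 and 16.4 and 13.7 on D12. With Nanog+Oct4 they read 6.14 and 3.34 FPKM on D0, 10.4 and 7.14 on D1, 22.1 and 23.9 on D3, 30.1 and 31.7 on D5 and 36.8 and 28.5 on D7, then 62.99 and 48.7 on D8, 51.2 and 49.4 on D10 and 43.4 and 35.3 on D12. Icam1 rose together in both up to D5, by 2.28 ± 0.34 (SE, adjusted p = 1.85e-05) with NanogN70+Oct4 and 2.52 ± 0.34 (SE, adjusted p = 5.83e-06) with Nanog+Oct4. Thereafter NanogN70+Oct4 came down while Nanog+Oct4 reached its highest values at D8. The combinations did not overlap from D7 on, and the difference was -2.23 ± 0.34 (SE, adjusted p = 1.45e-05) at D10 and -1.33 ± 0.34 (SE, adjusted p = 0.00302) at D12. At D12 both Nanog+Oct4 libraries were above the mES value and both NanogN70+Oct4 libraries below it. Of 5 further ICAM genes and integrin partners, 3 were tested. None was called at D12, and Icam2, an adhesion molecule of endothelium, was lower with NanogN70+Oct4 at D5, at -1.14 ± 0.26 (SE, adjusted p = 0.0046), and at D7, at -1.01 ± 0.26 (SE, adjusted p = 0.00633).

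Icam1 against Cd44 gives the path along which such cells are usually followed. With NanogN70+Oct4 the ratio of Icam1 to Cd44 was 0.0537 and 0.0358 at D0 and rose to 3.31 and 2.16 at D12. Nanog+Oct4 began at 0.0665 and 0.0266 and ended at 2.101 and 1.32. At D5 the values were 0.579 and 0.489 with NanogN70+Oct4, below the 0.790 and 0.824 of Nanog+Oct4, and mES was at 104. The final ratios thus differed less than either gene, since NanogN70+Oct4 ended low in both genes and Nanog+Oct4 high in both.

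**Figure D3:**
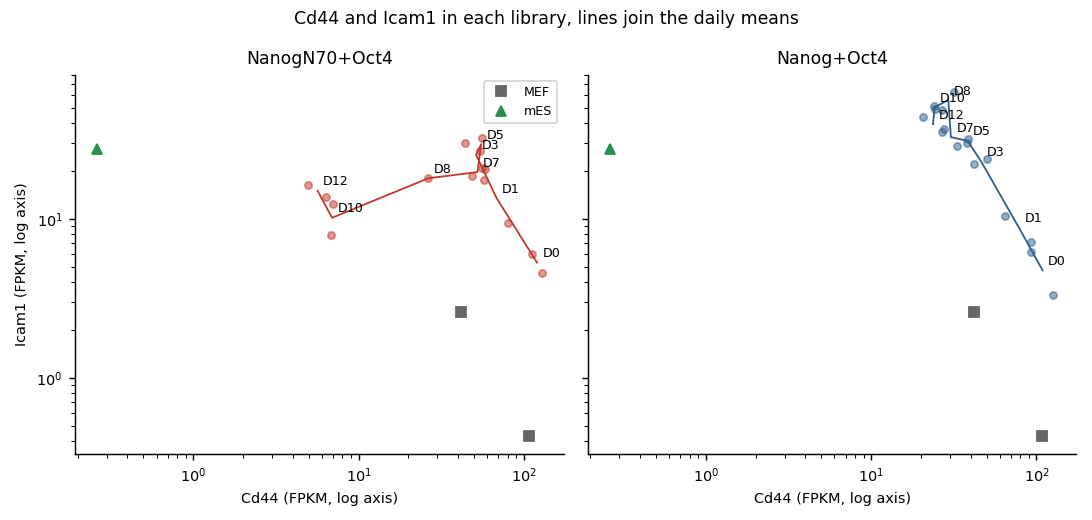
Each point is a library, placed by Cd44 (horizontal, FPKM, log axis) and Icam1 (vertical, FPKM, log axis), with NanogN70+Oct4 on the left, Nanog+Oct4 on the right, lines through the daily means, MEF as grey squares and mES as a green triangle. Both paths climb in Icam1 up to D5, after which NanogN70+Oct4 moves left to Cd44 levels of 4.97 and 6.34 FPKM at D12 and Nanog+Oct4 to 20.7 and 26.7.

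Alpl encodes tissue-nonspecific alkaline phosphatase, the GPI-anchored enzyme whose stain is an early sign of reprogramming (chr4:137741733-137796384, minus strand). RefSeq places starts of the gene at 2 sites on GRCm38.p6, and the leading transcript of the iPSC table uses the upstream of these. The 250 bases before each are shown, 5′ to 3′ on the strand of the gene, with CpG dinucleotides in capitals, because they differ in CpG content and only the first precedes the transcript that carried the iPSC signal.
Alpl upstream start, chr4:137796385-137796634, minus strand: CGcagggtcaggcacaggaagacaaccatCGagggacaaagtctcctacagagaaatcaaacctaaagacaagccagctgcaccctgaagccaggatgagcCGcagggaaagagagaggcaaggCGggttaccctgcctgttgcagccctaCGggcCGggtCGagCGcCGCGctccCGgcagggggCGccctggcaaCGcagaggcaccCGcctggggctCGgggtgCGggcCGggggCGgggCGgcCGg
Alpl downstream start, chr4:137766476-137766725, minus strand: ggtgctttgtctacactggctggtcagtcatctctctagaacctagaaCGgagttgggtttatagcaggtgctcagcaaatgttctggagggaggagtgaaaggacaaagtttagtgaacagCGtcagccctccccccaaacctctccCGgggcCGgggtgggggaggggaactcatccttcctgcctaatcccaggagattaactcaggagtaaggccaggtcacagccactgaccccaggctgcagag
The first window holds 20 CpG and 68.4% G or C, and 17.9% of 32851 RefSeq windows of the same length hold at least as many CpG. The second holds 4, which 62.2% reach or pass. RefSeq promoter windows matched 5 of the 9 genes (Alpl, Cd44, Eng, Icam1 and Cd9). In the 6 windows of these genes, from 250 bases before to 50 after the start, no copy was found on either strand of TGANTCA (the AP-1 word, in 7.81% of all windows), GGAATG (TEAD, 14.7%), ATGCAAAT (the octamer, 1.74%) or ACAATG (SOX, 12.6%), which says only that these letters are not in these windows.

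The Alpl level was 2.37 and 0.159 FPKM in MEF and 147 in mES. NanogN70+Oct4 libraries read 0.102 and 0.0169 FPKM on D0, 0.0982 and 0.127 on D1, 0.649 and 0.273 on D3, 1.71 and 1.74 on D5 and 6.96 and 4.78 on D7, then 32.01 on D8, 79.2 and 42.4 on D10 and 106 and 68.04 on D12. Nanog+Oct4 libraries read 0.261 and 0.140 FPKM on D0, 1.76 and 1.01 on D1, 5.24 and 5.04 on D3, 5.18 and 6.06 on D5 and 7.96 and 6.32 on D7, then 58.3 and 51.97 on D8, 61.5 and 47.1 on D10 and 49.4 and 39.2 on D12. Native Nanog was ahead early: both its libraries were above both NanogN70+Oct4 libraries from D0 to D5. At D7 and D10 the ranges overlapped. Between D7 and D8 both combinations stepped up across the medium change, so that time and medium cannot be told apart, and at D12 NanogN70+Oct4 was the higher. The difference was -1.08 ± 0.35 (SE, adjusted p = 0.119) at D1, -2.08 ± 0.35 (SE, adjusted p = 0.000419) at D3 and -1.28 ± 0.35 (SE, adjusted p = 0.0149) at D5, where the call was lost on leaving out any 1 of the 4 libraries of that day. The log2 difference then lay between -1.37 and -1.18, with adjusted p from 0.0604 to 0.0848. With a pseudocount of 0.1 it was -1.64 (adjusted p = 0.0852), also not called. At D12 it was 0.94 ± 0.35 (SE, adjusted p = 0.0313), under the 2-fold limit. From D7 to D10 Alpl rose by 3.12 ± 0.35 (SE, adjusted p = 6e-07) with NanogN70+Oct4 and 2.76 ± 0.35 (SE, adjusted p = 5.54e-06) with Nanog+Oct4. The other alkaline phosphatase genes were near 0 and were not tested: over the 31 time-course libraries Alpi, Akp3 and Alppl2 did not exceed 0.0285, 0.150 and 0.184 FPKM.

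Cd9 encodes a tetraspanin, a membrane organiser present on fibroblasts and, at high level, on pluripotent cells (chr6:125460266-125494791, minus strand). Its level was 61.1 and 51.5 FPKM in MEF and 322 in mES. NanogN70+Oct4 gave 56.4 and 60.5 FPKM on D0, 15.8 and 19.7 on D1, 20.1 and 19.995 on D3, 25.1 and 25.02 on D5 and 26.8 and 34.4 on D7, then 74.9 on D8, 80.8 and 42.7 on D10 and 125 and 62.6 on D12. Nanog+Oct4 gave 81.4 and 43.7 FPKM on D0, 31.5 and 29.04 on D1, 21.8 and 21.8 on D3, 24.04 and 31.2 on D5 and 26.2 and 30.9 on D7, then 42.5 and 39.5 on D8, 43.99 and 37.7 on D10 and 38.6 and 40.8 on D12. Both combinations were at their lowest between D1 and D3. At D12 both NanogN70+Oct4 libraries were above their D0 values and both Nanog+Oct4 libraries below theirs. From D0 to D5 the change was -1.19 ± 0.29 (SE, adjusted p = 0.00228) with NanogN70+Oct4 and -1.10 ± 0.29 (SE, adjusted p = 0.00506) with Nanog+Oct4, and the second of these calls was lost without Nanog D0 replicate 1, at -0.66 (adjusted p = 0.134), or without Nanog D5 replicate 1, at -0.91 (adjusted p = 0.0649). It was also lost with libraries rescaled to a common total, at -0.98 (adjusted p = 0.00602), and with only the groups of the contrast fitted, at -1.10 (adjusted p = 0.0942). At D12 NanogN70+Oct4 was called higher, at 1.14 ± 0.29 (SE, adjusted p = 0.00265), but the 2 libraries stood apart, at 125 and 62.6 FPKM, and without NanogN70 replicate 1 the value was 0.64 (adjusted p = 0.106). Of 7 tetraspanins and partners of CD9, at D12 1 was called higher, its partner Igsf8 at 1.98 ± 0.32 (SE, adjusted p = 3.24e-05), and 3 lower, led by Cd63, a lysosomal tetraspanin, at -1.82 ± 0.21 (SE, adjusted p = 4.85e-07). None of the 7 was called at D5 or D7.

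Fut9 encodes the alpha-1,3-fucosyltransferase that completes SSEA-1 (chr4:25609332-25800244, minus strand). It was at 0.0438 and 0.0107 FPKM in MEF and 3.75 in mES. From D0 to D7 every library of either combination stayed at or below 0.122 FPKM. With NanogN70+Oct4 it then read 0.379 on D8, 2.16 and 1.69 on D10 and 4.39 and 3.64 on D12, in FPKM, and with Nanog+Oct4 0.0160 and 0.0760 on D8, 0.117 and 0.420 on D10 and 0.389 and 0.860 on D12. At D12 both NanogN70+Oct4 libraries stood beside the mES value and above both Nanog+Oct4 libraries. The difference was 1.21 ± 0.13 (SE, adjusted p = 1.74e-07) at D10 and 1.64 ± 0.13 (SE, adjusted p = 3.63e-09) at D12. Fut9 passed the filter only through the NanogN70+Oct4 libraries of D10 and D12, so these calls are not independent of it. With no filter both calls were kept. From D0 to D12 Fut9 rose by 2.29 ± 0.13 (SE, adjusted p = 1.15e-11) with NanogN70+Oct4, and with Nanog+Oct4 the value was 0.67 ± 0.13 (SE, adjusted p = 0.000396), under the 2-fold limit on this scale, which flattens low levels.

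The rest of the route to SSEA-1 was read beside Fut9. Of 6 genes for the related fucosyltransferase Fut4, the galactosyltransferase B4galt1 and the supply of GDP-fucose, none was called at D5, D7 or D12. From D0 to D12 none rose in either combination, and 1 fell with NanogN70+Oct4. Fut4 lay between 0.161 and 1.71 FPKM and differed at D12 by 0.56 ± 0.22 (SE, adjusted p = 0.0418).

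Pecam1 encodes CD31, an adhesion molecule of endothelium, platelets and leukocytes that pluripotent mouse cells also carry (chr11:106654217-106750628, minus strand). It was listed at 0 in both MEF libraries and was at 47.4 FPKM in mES. NanogN70+Oct4 read 0 and 0.0788 FPKM on D0, 0.168 and 0.0589 on D1, 0.271 and 0.255 on D3, 0.382 and 0.331 on D5 and 0.677 and 0.759 on D7, then 2.18 on D8, 12.1 and 5.95 on D10 and 25.6 and 13.7 on D12. Nanog+Oct4 read 0.0174 and 0.0976 FPKM on D0, 0.225 and 0.0335 on D1, 0.836 and 0.268 on D3, 0.304 and 0.455 on D5 and 0.357 and 0.300 on D7, then 0.0164 and 0.101 on D8, 0.249 and 0.201 on D10 and 0.519 and 1.71 on D12. The NanogN70+Oct4 libraries were above both Nanog+Oct4 libraries from D7 on. This was the largest rise of NanogN70+Oct4 over Nanog+Oct4 among the 9 genes, at 2.96 ± 0.28 (SE, adjusted p = 2.3e-08) at D10 and 3.29 ± 0.28 (SE, adjusted p = 6.07e-09) at D12. From D0 to D12 Pecam1 rose by 4.25 ± 0.28 (SE, adjusted p = 5.84e-11) with NanogN70+Oct4, against 0.94 ± 0.28 (SE, adjusted p = 0.0102) with Nanog+Oct4, which was not called. Pecam1 passed the filter almost only through NanogN70+Oct4 libraries, so its calls are not independent of the filter.

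Pecam1 was read beside genes of the other cell types that carry it. Cdh5, the defining cadherin of endothelium, did not exceed 0.899 FPKM in any time-course library, nor Tie1 0.0785 or Emcn 0.287. Other endothelial genes reached more: Kdr 7.33 FPKM, Tek 5.92, Cldn5 5.49, Esam 2.07 and Vwf 1.03. The sum of 8 endothelial genes was 4.01 and 9.52 FPKM at D12 with NanogN70+Oct4 and 4.33 and 4.83 with Nanog+Oct4. Of the 4 that passed the filter, at D12 Cldn5, a tight-junction claudin, was higher, at 1.76 ± 0.29 (SE, adjusted p = 3.27e-05), and Kdr, the VEGF receptor, lower, at -1.08 ± 0.24 (SE, adjusted p = 0.000825). At D7 Esam was higher and Tek lower, and at D5 none was called. The 8 leukocyte genes summed to 5.87 and 7.98 FPKM with NanogN70+Oct4 and 8.102 and 23.9 with Nanog+Oct4 at D12, with Lyz2, a lysozyme of myeloid cells, the only call, at -2.86 ± 0.77 (SE, adjusted p = 0.00421). At D0 the leukocyte sum was higher than at any later day in both combinations, at 52.05 and 96.9 FPKM with NanogN70+Oct4 and 51.3 and 153 with Nanog+Oct4, a value to set beside the D0 levels of Icam1 and Ly6a, and its part in them was not tested.

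Surface genes of pluripotent cells outside the 9 were counted at D5, D7 and D12. Of 10 such genes, 4 were called higher and 1 lower with NanogN70+Oct4 at D5, 7 higher at D7 and 6 higher at D12, with none lower at D7 or D12. The calls of D12 ran from Podxl, a sialomucin, at 1.97 ± 0.35 (SE, adjusted p = 8.37e-05) to Tdgf1, the NODAL co-receptor Cripto, at 3.94 ± 0.33 (SE, adjusted p = 5.85e-09), and the median was 2.13 against 0.17 over all genes tested. Of the 8 pluripotency genes, Tdgf1 again among them, all were higher at D7 and at D12, from Tfcp2l1 at 1.38 ± 0.19 (SE, adjusted p = 4.48e-06) to Dppa3 at 4.06 ± 0.48 (SE, adjusted p = 6.63e-07) at D12. Neither Fut9 nor Pecam1 was called at D7.

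Over the whole course, 7 of the 9 genes were called from D0 to D12 with NanogN70+Oct4, against 34.6% of all genes: Alpl, Fut9, Pecam1 and Icam1 rose and Thy1, Cd44 and Ly6a fell. With Nanog+Oct4 3 were called, against 16.1%: Alpl and Icam1 rose and Cd44 fell. Alpl rose by 6.35 ± 0.35 (SE, adjusted p = 6.61e-12) with NanogN70+Oct4 and 5.23 ± 0.35 (SE, adjusted p = 3.95e-10) with Nanog+Oct4, the largest rise of the set in each. From D0 to D5 the counts were equal, 5 of 9 in each combination (Icam1 and Alpl up, Thy1, Cd44 and Cd9 down), against 19.5% of all genes with NanogN70+Oct4 and 16% with Nanog+Oct4. From D7 to D10 5 members were called with NanogN70+Oct4 (15.7% of all genes), with Alpl, Fut9 and Pecam1 up and Cd44 and Ly6a down, and 2 with Nanog+Oct4 (10.2%), Thy1 and Alpl, both up. The contrasts from D0 share the D0 libraries with each other. Those from D0 to D12 and from D7 to D10 also span the medium change and, with Nanog+Oct4, the rise in depth.

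Whether the change itself differed was tested as an interaction of combination and day from D0 to D12. It was called for 7 of the 9 genes, against 23.7% of all genes. Fut9 and Pecam1 are among the 7, and their calls are not independent of the filter on low values. The D12 libraries of the combinations also differ in depth. It was positive, toward NanogN70+Oct4, for Pecam1 at 3.31 ± 0.39 (SE, adjusted p = 1.75e-06), Fut9 at 1.62 ± 0.19 (SE, adjusted p = 1.34e-06) and Cd9 at 1.17 ± 0.41 (SE, adjusted p = 0.0306). It was negative for Thy1 at -3.22 ± 0.47 (SE, adjusted p = 2.25e-05), Ly6a at -2.18 ± 0.47 (SE, adjusted p = 0.00124), Cd44 at -2.04 ± 0.41 (SE, adjusted p = 0.000626) and Icam1 at -1.5 ± 0.49 (SE, adjusted p = 0.0202). For Alpl it was 1.11 ± 0.49 (SE, adjusted p = 0.0848) and for Eng 0.08 ± 0.24 (SE, adjusted p = 0.834). The calls of Cd9 and Icam1 were the weak ones: leaving out single libraries left Cd9 uncalled in 6 of 8 cases, with the lowest value at 0.68 (adjusted p = 0.22) without NanogN70 D12 replicate 1, and Icam1 in 4 of 8, with the value nearest 0 at -1.14 (adjusted p = 0.0913) without Nanog D0 replicate 2. Cd9 was also not called with no filter, at 1.17 (adjusted p = 0.056), or with only the groups of the contrast fitted, at 1.17 (adjusted p = 0.133), and Icam1 not with a pseudocount of 0.1, at -1.59 (adjusted p = 0.0774).

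The start was set against MEF. Icam1 was the only member called between NanogN70+Oct4 at D0 and MEF (11.4% of all genes), at 1.47 ± 0.34 (SE, adjusted p = 0.00292), and between Nanog+Oct4 at D0 and MEF (6.84% of all genes), at 1.29 ± 0.34 (SE, adjusted p = 0.011). The MEF libraries differed in Icam1, at 2.61 and 0.428 FPKM. Without MEF replicate 2 the values were 0.80 (adjusted p = 0.104) and 0.62 (adjusted p = 0.259), and without Nanog D0 replicate 1 the second was 0.93 (adjusted p = 0.112). With only the groups of the contrast fitted neither was called, at 1.47 (adjusted p = 0.0558) and 1.29 (adjusted p = 0.246). MEF replicate 1 was also the higher of the pair in Alpl, at 2.37 and 0.159 FPKM, and in Ly6a, and the lower in Cd44.

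Ordered by their means over 18 groups, Thy1 and Cd44 shared a low end, NanogN70+Oct4 at D10 and D12 followed by mES, but not a high end. For Cd44 this was D0, D1 and MEF. For Thy1 the 7 highest groups formed an unbroken chain of overlapping libraries that also held Nanog+Oct4 at D8, D10 and D12, and 5 of the 17 neighbouring pairs were apart. For Cd44 8 of 17 were apart, among them both steps between Nanog+Oct4 at D12, NanogN70+Oct4 at D10 and NanogN70+Oct4 at D12. Alpl, Pecam1, Eng and Cd9 were highest in mES, Fut9 in NanogN70+Oct4 at D12, Icam1 in Nanog+Oct4 at D8 and Ly6a in NanogN70+Oct4 at D8, which is 1 library. The neighbouring groups that did not overlap numbered 6 of 17 for Icam1, Alpl, Pecam1, Eng and Cd9, 5 for Ly6a and 4 for Fut9.

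In established iPSC the set was read against fibroblasts and between combinations. All 9 genes were called between iPSC and MEF, against 40.7% of the 13312 genes tested there, 6 higher (Alpl, Pecam1, Icam1, Cd9, Fut9 and Eng) and 3 lower (Thy1, Cd44 and Ly6a). Alpl lay at 134 to 203 FPKM (median 189) in the 6 NanogN70+Oct4 iPSC and 173 to 281 FPKM (median 182) in the 6 Nanog+Oct4 iPSC, with 3.11 and 0.357 in MEF and 216 in mES. Pecam1 lay at 18.5 to 38.98 FPKM (median 29.8) and 22.7 to 33.5 FPKM (median 29.6), with 0 in both MEF and 51.5 in mES. Both genes were far above MEF in every iPSC sample, at log2 differences of 6.33 ± 0.29 (SE, adjusted p = 2.26e-09) and 4.88 ± 0.21 (SE, adjusted p = 1.05e-09).

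Icam1 lay at 15.1 to 27.7 FPKM (median 19.01) in NanogN70+Oct4 iPSC and 10.97 to 24.6 FPKM (median 17.4) in Nanog+Oct4 iPSC, 3.14 ± 0.28 (SE, adjusted p = 6.74e-07) above MEF on the log2 scale. Cd9 lay at 159 to 326 FPKM (median 182) and 189 to 344 FPKM (median 238), 1.67 ± 0.23 (SE, adjusted p = 2.66e-05) above MEF. Fut9 lay at 1.28 to 2.91 FPKM (median 2.397) and 1.46 to 4.47 FPKM (median 2.28), 1.66 ± 0.27 (SE, adjusted p = 0.000118) above MEF. Eng lay at 19.9 to 27.5 FPKM (median 22.2) and 16.5 to 36.8 FPKM (median 25.6), 1.59 ± 0.19 (SE, adjusted p = 9.42e-06) above MEF. None of these 4 genes overlapped between the iPSC and the MEF samples. How many of all genes also lay apart was not counted, and 73.8% had an unadjusted limma p under 0.05. Eng, lower with NanogN70+Oct4 than with Nanog+Oct4 on every day of the time course, was thus above MEF in the iPSC of both combinations.

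The fibroblast markers were uneven among the iPSC. Thy1 lay at 0.433 to 24.8 FPKM (median 1.82) in NanogN70+Oct4 iPSC and 0.671 to 11.5 FPKM (median 3.88) in Nanog+Oct4 iPSC, and was -5.35 ± 0.75 (SE, adjusted p = 3.6e-05) against MEF. Cd44 lay at 0.0557 to 30.96 FPKM (median 0.606) and 0.160 to 11.9 FPKM (median 1.23), and was -4.80 ± 0.94 (SE, adjusted p = 0.000557) against MEF. Ly6a lay at 0.187 to 33.9 FPKM (median 1.56) and 0 to 13.8 FPKM (median 1.69), and was -2.30 ± 0.89 (SE, adjusted p = 0.0334) against MEF, a call lost without Nanog iPSC2 sample 6, at -2.19 (adjusted p = 0.0541), or without either MEF library, at -1.63 (adjusted p = 0.267) and -2.98 (adjusted p = 0.0544). It was also lost with a pseudocount of 0.1, at -3.14 (adjusted p = 0.0573), and with no filter on low values, at -2.30 (adjusted p = 0.0699). In all 3 genes the highest iPSC was NanogN70 iPSC1 sample 9, at 24.8, 30.96 and 33.9 FPKM, and the next was Nanog iPSC1 sample 3, at 11.5, 11.9 and 13.8. These were also the iPSC with the most RNA of the 8 fibroblast genes, 1355 and 419 FPKM in sum, where the other 10 lay between 0.761 and 145 and MEF at 7164 and 6186. With both samples left out all 9 genes were still called against MEF, with Thy1 at -5.67 (adjusted p = 5.6e-06), Cd44 at -5.25 (adjusted p = 1.49e-05) and Ly6a at -2.71 (adjusted p = 0.00206).

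**Figure D4:**
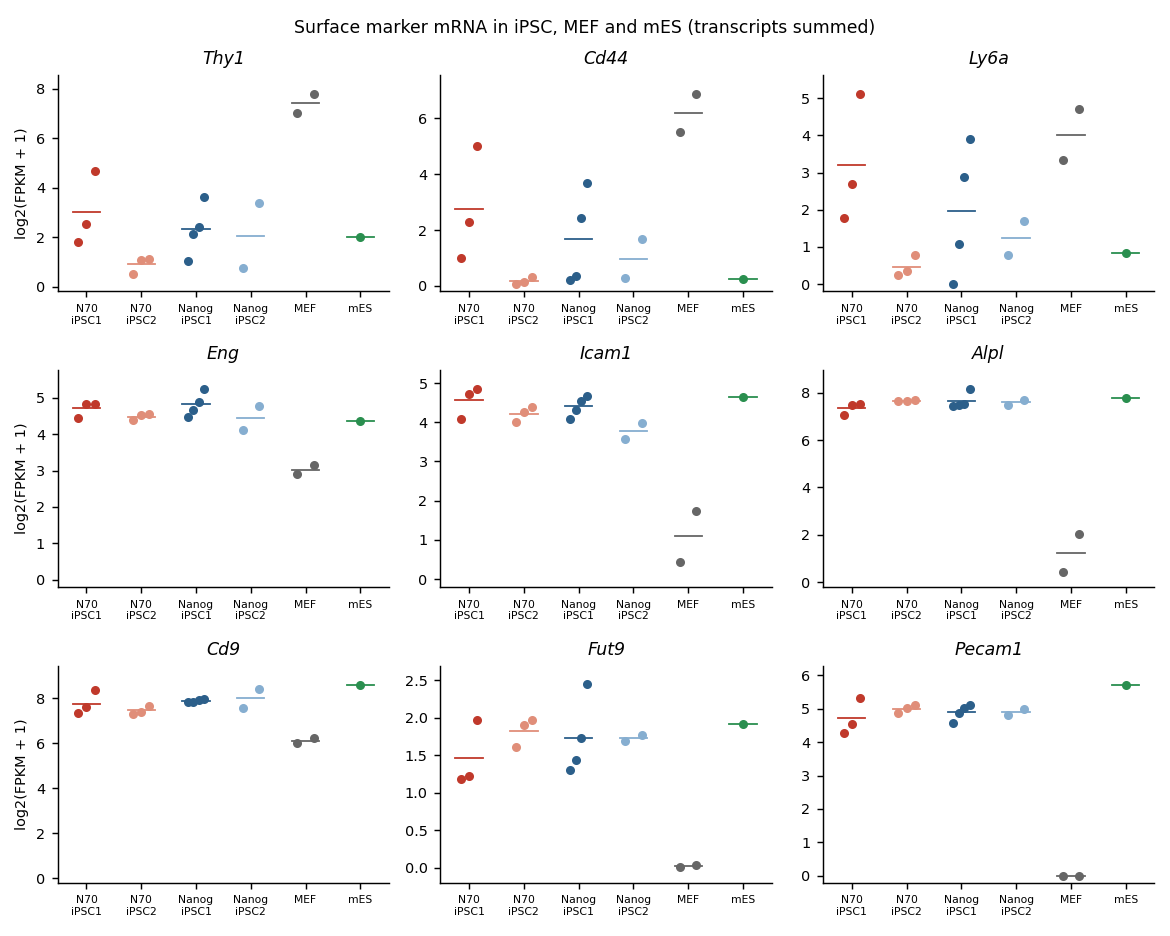
The plots show log2(FPKM + 1) of the 9 genes, transcripts summed, in each iPSC sample by combination and line, in MEF and in mES, with a bar at each group's mean. Alpl, Pecam1, Cd9, Icam1, Eng and Fut9 sit above MEF in all 12 iPSC samples, and Thy1 and Cd44 below MEF in all 12. Ly6a spreads from 0 to 33.9 FPKM, with NanogN70 iPSC1 sample 9 above both MEF libraries.

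**Figure D5:**
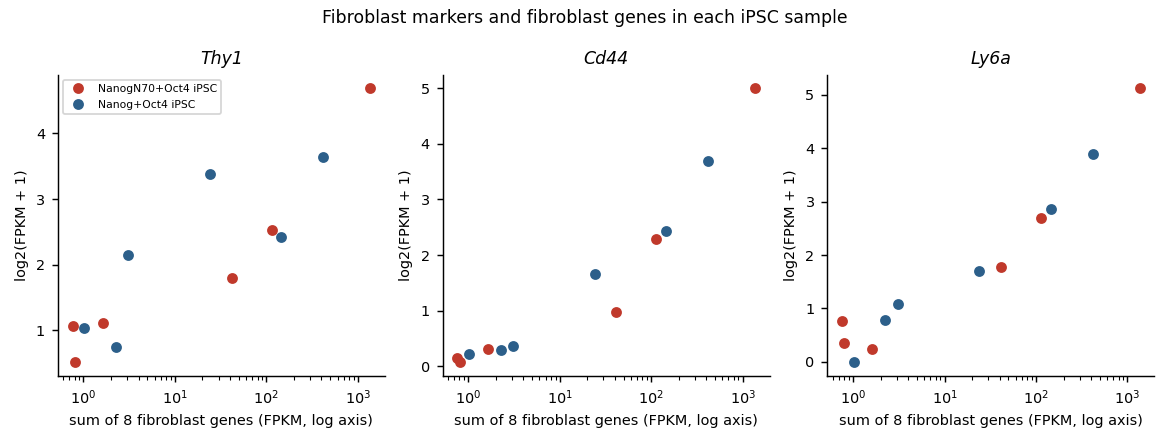
Each point is an iPSC sample, placed by the sum of the 8 fibroblast genes (horizontal, FPKM, log axis) and by Thy1, Cd44 or Ly6a (vertical, log2(FPKM + 1)), red for NanogN70+Oct4 and blue for Nanog+Oct4. The samples with sums of 1355 and 419 FPKM are the highest in each of the 3 genes.

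Between NanogN70+Oct4 iPSC and Nanog+Oct4 iPSC none of the 9 genes was called by limma, and none of all 13312 tested (0%). At an unadjusted p under 0.05 there were 227 genes in all, 1.71% of those tested, and none of the 9. The log2 differences of the 9, each averaged over the lines, ran from -0.33 ± 0.18 (SE) for Cd9 to 0.30 ± 0.22 for Icam1. Errors were widest for Cd44, at 0.14 ± 0.73, and Ly6a, at 0.22 ± 0.69, and a p that misses the threshold does not show that the combinations were alike. The 3 NanogN70 iPSC2 samples were low in all 3 fibroblast markers, with at most 1.16 FPKM of Thy1, 0.235 of Cd44 and 0.707 of Ly6a, where mES held 2.98, 0.192 and 0.788. The column names give iPSC1 and iPSC2 different passages, and the effects of line and of passage cannot be told apart.

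Around the members, the lists moved as follows between iPSC and MEF. Of the 12 fibroblast surface genes 11 were lower and none higher, and of the 9 tested genes of the pluripotent surface 8 were higher and 1 lower. All 8 fibroblast genes were lower and all 8 pluripotency genes higher. Of the 8 partners of endoglin 6 were lower and none higher, although Eng itself was higher. Of the 7 tetraspanins and partners 4 were lower and none higher, although Cd9 was higher. Of the 5 tested SSEA-1 genes 2 were lower and none higher. The hyaluronan genes gave 2 higher and 3 lower of 7, the Ly6 genes 1 higher and 1 lower of 3, the ICAM list 1 higher of 2, the endothelial list 1 higher of 3 and the leukocyte list 1 higher and 1 lower of 2.

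At the transcript level the genes with several models did not share them evenly. Thy1, Icam1, Fut9 and Cd9 each had a single model. For Cd44, NM_001039151.1 held 78.4% of the summed Cd44 level in MEF and 86.8% in iPSC, where it was above 0 in 6 of 12 samples, while NM_009851.2, at 0 in MEF, was above 0 in all 12 iPSC samples and was the only Cd44 transcript listed in mES. Over the 12 iPSC NM_001039151.1 averaged 4.00 FPKM and ranged from 0 to 27.8, so its share rests largely on its highest sample. NM_009851.2 averaged 0.251 FPKM in iPSC and stood at 0.192 in mES, near 0. The part of fibroblast RNA in these shares was not tested. For Alpl, NM_007431.3, which starts at 137796384 on chromosome 4, the upstream start shown, held 94.3% of the iPSC sum, 79.01% of the mES sum and none of the MEF sum. The MEF level of Alpl was all assigned to XM_006538500.2. For Eng, NM_007932.2 led in MEF (65.6%) and iPSC (51.98%), and NM_001146348.1, of 9.11% in MEF, held 35.4% in iPSC. Pecam1 in iPSC was spread over 8 models, led by NM_001032378.2 with 37.99% and NM_008816.3 with 28.02%. Such shares are estimates by StringTie from shared exons and carry an unknown error.

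As a description with no test, the genes whose log2(FPKM + 1) was most like each member over the 31 time-course libraries, by Pearson's r, are given here. The libraries share days, combinations and depth. Thy1 was followed most closely by Lhfp (r = 0.956), Arhgdib (r = 0.951) and Fbln5 (r = 0.949), and Cd44 by Wdr1 (r = 0.959), Zmpste24 (r = 0.951) and Arpc5 (r = 0.95). The nearest to Icam1 were Reep1 (r = 0.938), LOC105243282 (r = 0.937) and Aldh1l1 (r = 0.936), and to Alpl Cspg5 (r = 0.968), Foxo6 (r = 0.956) and Tmem8 (r = 0.949). Fut9 was matched by Gm17768 (r = 0.994), EU599041 (r = 0.994) and Tcl1 (r = 0.992) and Pecam1 by Gm31714 (r = 0.983), Lrrc31 (r = 0.981) and D1Pas1 (r = 0.981), and Fut9 and Pecam1 were themselves alike at r = 0.965. Cd9 was nearest to Rbpms (r = 0.92), Gm32673 (r = 0.914) and Cdh3 (r = 0.901), and Eng to Tmem43 (r = 0.89), Pxk (r = 0.888) and Serpine2 (r = 0.888). Ly6a had the least like neighbours, Zfp36l2 (r = 0.792), Gxylt2 (r = 0.782) and Ctdsp2 (r = 0.777). Within the 9, the most opposed pair was Cd44 and Alpl, at r = -0.873, and Thy1 was most like Eng, at r = 0.758.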

How the data were processed

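RNA-seq libraries were made by the study from Oct4-GFP mouse embryonic fibroblasts during reprogramming, from iPSC lines and from reference cells. Reads were trimmed with Trim Galore 0.6.4, aligned to mm10 with HISAT2 2.2.1 and assembled with StringTie 2.2.1, per the submitters' processing notes. The authors deposited FPKM values, one table by gene symbol (37108 genes, 34 libraries) and one by transcript (106520 transcripts, 15 libraries). Whether strand was used and which annotation was counted are not given in the sources used here.

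For the work reported here, transcripts were summed by gene, and log2(FPKM + 1) was fitted with limma 3.58.1 in R 4.3.3 (lmFit, eBayes with trend) over all groups of a table. The time-course fit held combination and day as groups, with MEF, and the iPSC fit held combination and line as groups, with MEF. The mES library entered no test. Genes at 1 FPKM or more in at least 2 fitted libraries were tested, and p-values were adjusted over all of them by the Benjamini-Hochberg method. A call required 1 or more on the log2 scale and 0.05 as the upper bound of the adjusted p. NanogN70+Oct4 at D8, with 1 library, was fitted but not tested. Relative depth was read from the steps of low FPKM values, which are whole multiples of the value of 1 fragment, over 4821 genes with a tolerance of 0.05. The script was tested on simulated data. Promoter windows came from RefSeq on GRCm38.p6 and gene positions from GENCODE vM21. Python 3.11.15 with pandas 2.3.3 and matplotlib 3.10.9 was used for the rest.

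The members and gene lists were chosen with earlier results of these data known. Beside the 9 members, the text names from each list the called genes with the largest and smallest difference at D12, the Ly6, phosphatase and fucosyltransferase genes, and 3 most similar genes per member. Has2, Tgfbr3, Icam2, Esam, Tek, Tgfbr2 at D5 and D7 and Hmmr at D7 were named after their values were seen. Alternatives were another pseudocount, no filter, rescaling to a common total, quantile normalization, no fold limit, fits on the groups of a contrast only, the replicate number as a block, an average of both samples labelled 1 of Nanog iPSC1, no line term, and leaving out each library. Leaving out MEF libraries in the iPSC comparison, and leaving out both iPSC samples richest in fibroblast RNA, were added after the data were seen.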

Additional observations from a re-analysis of the deposited data

Results flagged for a closer look

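Among the 12 iPSC a sample stood apart in 9 of the 27 groups of 4 to 10 samples tested by the gap to the nearest other sample. The cut-offs flag about 1 in 20 groups by chance only where values are normally distributed. Here FPKM were used without logs, iPSC1 and iPSC2 were pooled, and Nanog iPSC1 was tested again within Nanog iPSC. The chance rate is therefore unknown, and the same samples recur because genes of a sample are not independent. NanogN70 iPSC1 sample 9 was the highest of the 6 NanogN70+Oct4 iPSC in Thy1, at 24.8 FPKM where the others reached 4.76, in Cd44, at 31 where the others reached 3.91, and in Ly6a, at 33.9 where the others reached 5.45. The same sample was the lowest of the 6 in Alpl, at 134 FPKM where the others lay between 179 and 203. Its sum of 8 fibroblast genes was 1355 FPKM, the highest of the iPSC, and the part of that in these levels was not tested.

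Nanog iPSC1 sample 3 was the highest of the 6 Nanog+Oct4 iPSC in Cd44, at 11.9 FPKM where the others reached 4.39, and had a fibroblast sum of 419 FPKM. Nanog iPSC1 sample 2 was the highest in Alpl, at 281 FPKM where the others of the combination lay between 173 and 207 and the others of its line between 173 and 185. It was also the highest in Fut9, at 4.47 FPKM where the others lay between 1.46 and 2.42. NanogN70 iPSC1 sample 8 was the highest of its 6 in Cd9, at 326 FPKM where the others lay between 159 and 201.

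The change from D0 to D12 differed between the combinations in 7 of the 9 genes by the limma interaction term, against 23.7% of all genes. The difference, NanogN70+Oct4 minus Nanog+Oct4 on the log2 scale, was -3.22 for Thy1, -2.18 for Ly6a, -2.04 for Cd44, -1.5 for Icam1, 1.17 for Cd9, 1.62 for Fut9 and 3.31 for Pecam1. The calls of Cd9 and Icam1 were the weak ones, lost on leaving out some single libraries. Those of Fut9 and Pecam1 are not independent of the filter on low values. At D12 the libraries of the combinations did not overlap in any of the 7. The same libraries enter the interaction term, so this adds no separate support. How many of all genes lay apart at D12 was not counted.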

How the results depend on the processing

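No called difference of a member turned its sign under any alternative. Of the settings compared for the 67 called member differences, 815 kept the call and 38 lost it. The setting with no fold limit only loosens the threshold, so it could not lose a call or turn a sign. Its kept calls are counted among the 815 and add no support. The counts of members called moved by over 1.5 times in these cases. With a pseudocount of 0.1 they were 1 at D1 between the combinations, 5 from D0 to D12 with Nanog+Oct4, and 2 for D0 against MEF in each combination. Of all 16915 genes, 266, 4250, 3078 (NanogN70+Oct4 at D0) and 1990 (Nanog+Oct4 at D0) were called there. The main fit called 207, 2719, 1933 and 1157. With a common total they were 5 from D0 to D12 with Nanog+Oct4 and 2 for NanogN70+Oct4 at D0 against MEF, where 4026 and 2686 of 19568 genes were called. With no fold limit they were 8 from D7 to D10 with NanogN70+Oct4, 6 from D0 to D12 with Nanog+Oct4 and 2 for D0 against MEF in each combination. Calls over all 16915 genes rose too, from D7 to D10 to 6570 from 2651 in the main fit. They were 6374 from D0 to D12, and 5093 (NanogN70+Oct4) and 3317 (Nanog+Oct4) against MEF. With only the groups of the contrast fitted they were 1 at D1 and 0 for D0 against MEF in each combination. Of all genes, 152 of 13061 were called at D1. Against MEF it was 1894 of 13033 with NanogN70+Oct4 and 209 of 12956 with Nanog+Oct4. The cause of these moves was not tested.

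Leaving out 1 library gave between 0 and 1 called members at D0 (1, Thy1, without Nanog replicate 2), 1 and 2 at D5 (1 without replicate 2 of either combination), 1 and 2 at D7 (1 without NanogN70 replicate 2), 3 and 5 from D0 to D12 with Nanog+Oct4 (5 without Nanog D0 replicate 2), 1 and 2 for NanogN70+Oct4 at D0 against MEF (2 without MEF replicate 2), and 0 and 2 for Nanog+Oct4 at D0 against MEF (0 without Nanog D0 replicate 1, 2 without Nanog D0 replicate 2 or either MEF). A group left with 1 library was assumed to vary like the others. With the replicate number as a block, 1 member, Thy1, was called at D1, where 222 of 16915 genes were called. No other count of members moved by over 1.5 times. Same-numbered libraries of the combinations deviated together only in part, with correlations over 16915 genes from -0.0645 at D3 to 0.395 at D7, so the numbers were not taken as pairs.

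Scaling moved the median of all genes from D0 to D12 with NanogN70+Oct4 from 0.34 as deposited to 0.41 with a common total and -0.01 with quantile normalization, and from 0.19 to 0.32 and -0.05 with Nanog+Oct4. From D8 on depth limits the comparison, since the combinations differ in it, and the iPSC table gives no depth.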
